A study of Mus musculus with 4 samples.

Results

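The nuclear-encoded subunits of oxidative phosphorylation (OXPHOS) were examined in mouse islets, the endocrine cell clusters of the pancreas. Members were taken by symbol: protein-coding genes starting with Nduf followed by a, b, c, s or v and a digit, the 4 genes Sdha, Sdhb, Sdhc and Sdhd, and genes starting with Uqcr, Cox4 to Cox8 or Atp5. The rule found 84 genes of the 43629 listed per library, of which 35 were assigned to complex I, 4 to complex II, 8 to complex III, 20 to complex IV and 17 to complex V. A further 10 symbols of these families were not protein-coding by annotation and stayed out.

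The study asked which RNAs change in level in islets labelled as lacking IMP2, and which RNAs come down with the protein. IMP2 is an RNA-binding protein encoded by Igf2bp2, and in mouse brown fat it is known to bind mRNAs of mitochondrial proteins. There were 4 RNA-seq libraries, 1 per group, all from islets of the C57BL/6 strain. The sources used here give no age, sex or number of animals.

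The library labelled knockout carried the genotype Rip2;IMP2, which the series title describes as an IMP2 knockout in islets. As a promoter name, Rip2 usually stands for an insulin promoter that works in beta cells, and other cells of an islet preparation can then keep the gene. Wild-type (WT) islets gave the IMP2 RIP library, which is RNA recovered by immunoprecipitation of the protein, and the IgG library, the usual antibody control. The last library came from islets of genotype control. With 1 library per group there is no estimate of the spread between animals or preparations, no p-value is given, and every interval below covers counting error between 2 libraries only.

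Gene counts summed to 24275628 in the library labelled knockout, 6025594 in the IMP2 RIP, 13195732 in the IgG library and 26350813 in control islets. Igf2bp2 itself had 222, 186, 458 and 255 counts in that order, so its level did not check the knockout label. Markers of beta cells summed to 334549 CPM (counts scaled so that every library has the same sum) in the library labelled knockout, 235715 in the RIP, 967 in the IgG library and 309171 in control islets. The IgG library thus stood apart from the tissue named in its label. Its 7 brown adipocyte markers summed to 10497 CPM with Ebf2 at 0, against 743 CPM in the RIP, 10.1 CPM in the library labelled knockout and 9.90 CPM in control islets. The comparison of RIP with control islets does not use the IgG library and is given beside those that do.

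OXPHOS complexes I to IV pass electrons from NADH and succinate to oxygen and pump protons across the inner mitochondrial membrane, except complex II, which pumps none. Complex V, the ATP synthase, uses the proton gradient to make ATP. In beta cells the ATP made from glucose closes potassium channels, which starts calcium entry and insulin release. Several subunits of complex IV (cytochrome c oxidase) exist as tissue isoforms: Cox6a2, Cox7a1 and Cox8b are known as heart and skeletal muscle forms, and Cox7a1 and Cox8b are also abundant in brown fat. The mitochondrial genome encodes some of the core subunits of complexes I, III and IV and part of complex V. Its 37 genes were listed at 0 in all libraries, so only nuclear subunits have values.

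Promoters are shown for Cox8b and its ubiquitous partner Cox8a, because this pair changed places between libraries, and for Cox6a1 and Atp5k, 2 of the 5 highest members in the IgG library, chosen because they hold motif matches. Uqcr10, which was higher than both there, held none of the motifs searched and is not printed. Ndufa2, also higher than both there, had no matched promoter and could not be printed. Each run gives the 250 bases before the RefSeq gene start, 5′ to 3′ on the gene's strand (build GRCm38.p6, minus strand for all 4). Capitals mark matches to a motif of NRF1 (GCGCA, any base, then GCGC) or of the ETS family that includes GABP (CCGGAAG), searched on both strands. These factors are known regulators of nuclear genes for mitochondrial proteins. The regions are chr7:140900447-140900696 for Cox8b, chr19:7217617-7217866 for Cox8a, chr5:115348959-115349208 for Cox6a1 and chr5:108434400-108434649 for Atp5k.
Cox8b: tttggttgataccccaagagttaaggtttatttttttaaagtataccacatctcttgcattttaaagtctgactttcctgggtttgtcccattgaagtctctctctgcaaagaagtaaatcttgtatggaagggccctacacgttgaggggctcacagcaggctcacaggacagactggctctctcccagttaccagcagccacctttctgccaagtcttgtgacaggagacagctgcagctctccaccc
Cox8a: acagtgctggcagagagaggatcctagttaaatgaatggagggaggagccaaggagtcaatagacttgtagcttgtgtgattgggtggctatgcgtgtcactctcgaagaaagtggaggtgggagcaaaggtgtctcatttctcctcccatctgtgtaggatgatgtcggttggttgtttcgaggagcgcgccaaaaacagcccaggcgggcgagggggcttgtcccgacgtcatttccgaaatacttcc
Cox6a1: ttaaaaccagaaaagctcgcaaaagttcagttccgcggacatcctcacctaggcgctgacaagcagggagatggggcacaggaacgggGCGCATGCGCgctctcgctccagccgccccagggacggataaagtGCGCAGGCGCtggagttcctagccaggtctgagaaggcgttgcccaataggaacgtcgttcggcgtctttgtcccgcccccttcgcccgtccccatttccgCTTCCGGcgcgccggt
Atp5k: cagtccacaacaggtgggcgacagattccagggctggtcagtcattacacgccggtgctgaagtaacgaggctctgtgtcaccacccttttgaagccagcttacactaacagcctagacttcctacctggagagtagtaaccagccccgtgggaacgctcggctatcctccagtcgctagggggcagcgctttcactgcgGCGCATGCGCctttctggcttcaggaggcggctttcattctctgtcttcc
Cox6a1 held 2 NRF1 matches, which begin 162 and 117 bases before the start, and 1 ETS match 16 bases before it, written in reverse complement. Atp5k held 1 NRF1 match 50 bases before the start. The Cox8b and Cox8a windows held neither motif, which says only that these letters are not in the windows. Cox8a and Atp5k each had an ETS match once the 50 bases after the start were added, and they count as holding it in the shares that follow.

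Of the 84 members, 68 matched a RefSeq promoter of 300 bases, which adds 50 bases after the start. The NRF1 motif was in 17 of the 68 (25.0%), against 5.19% of all promoters of this length. The ETS motif was in 16 (23.5%), against 9.93% of all promoters. A YY1 motif (AAGATGGCG) was in 7 members (10.3%) and 1.64% of all promoters, and an ERR motif (TCAAGGTCA) in 2 members (2.94%) and 0.466% of all promoters. YY1 and the estrogen-related receptors (ERR) are further known regulators of mitochondrial genes. No overlap between motifs was removed, and a match is a description of the sequence, not evidence of binding.

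Members took 0.620% of gene counts in the library labelled knockout, 1.19% in the IMP2 RIP, 13.0% in the IgG library and 0.650% in control islets. In bulk samples, fewer cells of a type and less RNA per cell cannot be told apart. Of the 84 members, 83, 80, 82 and 83 had at least 1 count in the same order. Cox7b2 had 1 count in control islets and 0 elsewhere, and Cox8c had 1 count in the library labelled knockout and 0 elsewhere. These isoforms are known from testis, and both stayed under the floor of 3 counts.

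Levels between genes were compared as CPM per kb of annotated exon. In control islets the highest members were Cox8a at 238, Ndufa2 at 187, Cox6a2 at 178, Cox6a1 at 165 and Atp5a1 at 146 CPM per kb. Ndufa2 is an accessory subunit of complex I and Atp5a1 the alpha subunit of the ATP synthase. In complex III the highest members in control islets were Uqcr10 at 120 and Uqcrh, the hinge protein, at 92.3 CPM per kb. In complex II they were Sdhd, a membrane anchor, at 63.4 and Sdha, the flavoprotein, at 39.2 CPM per kb. The second member of complex I was Ndufa1 at 127 CPM per kb, and that of complex V was Atp5e, the epsilon subunit, at 142 CPM per kb.

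The IgG library had another order. Cox8b led at 23137 CPM per kb, followed by Ndufa2 at 10434, Uqcr10 at 8668, Atp5k at 7437 and Cox6a1 at 6954. The RIP library had these same 5 genes on top, Cox8b at 1200, Ndufa2 at 730, Uqcr10 at 591, Atp5k at 444 and Cox6a1 at 417 CPM per kb. Cox8b was at 3.55 CPM per kb in the library labelled knockout and 1.58 in control islets. Across members, Spearman's rho of the levels was 0.99 between the library labelled knockout and control islets (81 genes), 0.93 between RIP and IgG (81 genes), 0.79 between RIP and control (81 genes) and 0.65 between IgG and control (82 genes). These genes share library, depth and exon length, so rho is only a description. The order within a library also depends on the length used: per kb of the transcript with the longest coding sequence, Atp5e led in control islets at 593 CPM per kb.

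**Figure D1:**
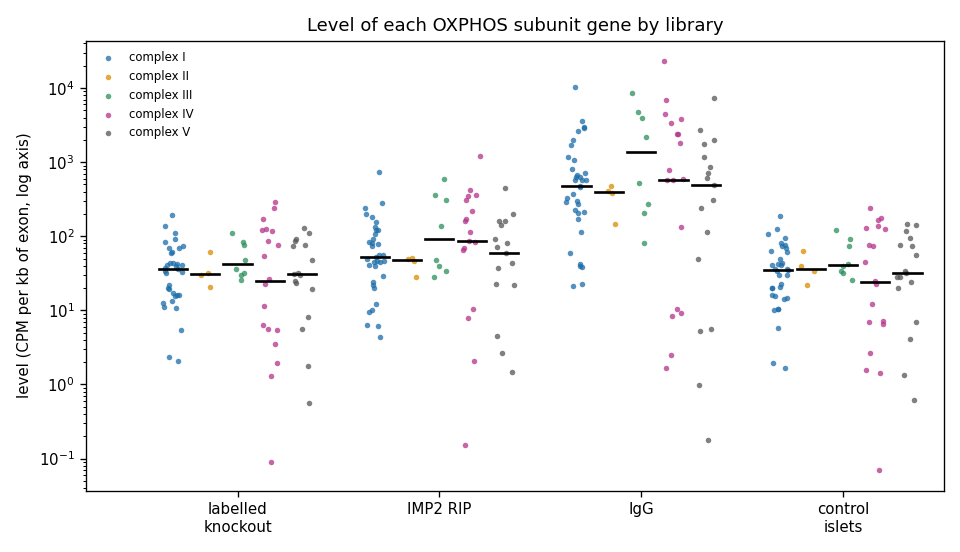
Level of each member in each library, in CPM per kb of exon on a log axis. Each point is a gene coloured by complex, bars are complex medians, and members at 0 are not drawn. Most members lie in the same range in the library labelled knockout and control islets, the RIP library lies moderately higher, and the IgG library extends to Cox8b at 23137 CPM per kb.

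Complex I made up 36.2% of the members' summed level in the library labelled knockout, 32.5% in the RIP, 28.9% in the IgG library and 35.8% in control islets. Complex IV made up 31.7%, 35.4%, 39.6% and 29.2% in that order, and complex III 10.3%, 15.2%, 16.0% and 10.7%. Complex II had a smaller share in the precipitated libraries, with 3.34% in the library labelled knockout, 1.72% in the RIP, 1.10% in the IgG library and 3.68% in control islets. Complex V made up 18.4%, 15.2%, 14.3% and 20.6%. Much of the complex IV level in the precipitated libraries was 1 gene, Cox8b. It held 23137 of the 51087 CPM per kb of complex IV in the IgG library and 1200 of 3611 in the RIP. In control islets it held 1.58 of 1258. The shares of all complexes in the precipitated libraries thus depend in part on Cox8b. They also depend on the division by exon length. By counts alone, complex V was ahead of complex IV in every library except IgG. In control islets it had 56178 counts, against 33334 for complex IV.

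The first comparison set the library labelled knockout against control islets. Nuclear OXPHOS subunits stood at nearly the same level in both, and 1 member was called: Cox7a1, an isoform of complex IV, was lower. A call means a ratio of at least 1.5-fold with a 95% interval that excludes 1, among genes with a mean CPM of at least 1 over the pair. Of 81 measured members, 0 were called higher, against 6.13% of all 15735 measured genes, and 1 was called lower, against 15.3% of all genes. The members' ratios had a median log2 of 0.02, against 0.00 over all genes, and ranged between -0.97 and 0.51. The sign of that median turned with the scaling of the libraries, so no direction is given for the group. At any fold, intervals excluded 1 for 25 members above and 14 below. These are 30.9% and 17.3% of the members, against 28.9% and 31.5% of all genes.

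Within this small range the complexes differed little. The median log2 ratio of the labelled knockout over control was 0.07 for complex I, -0.08 for complex II, -0.06 for complex III, 0.04 for complex IV and 0.00 for complex V. The F1 sector of the ATP synthase, its catalytic head, had a median of -0.19 over 5 genes, and the other 12 genes of complex V had 0.02. Atp5b, the catalytic beta subunit, had 8947 counts in the library labelled knockout and 13025 in control islets, a ratio of 0.772 (95% interval 0.752 to 0.793). Atp5a1 had 8370 and 12100 counts in the same order, a ratio of 0.778 (95% interval 0.756 to 0.800). Both were lower by an amount outside counting error and under the 1.5-fold limit.

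At a mean of at least 5 CPM, the other members with the lowest ratios were Uqcrc1, Sdha and Ndufs8. Uqcrc1, a core protein of complex III, was at 0.837 (95% interval 0.796 to 0.881) and Sdha at 0.853 (95% interval 0.814 to 0.893). Ndufs8, a core iron-sulfur subunit of complex I, was at 0.860 (95% interval 0.793 to 0.932). The highest at a mean of at least 5 CPM were Atp5s, known as coupling factor B, at 1.42 (95% interval 1.19 to 1.70) and Cox6a2 at 1.38 (95% interval 1.32 to 1.45). Next came the complex I accessory subunit Ndufb2 at 1.29 (95% interval 1.09 to 1.54), Cox8a at 1.24 (95% interval 1.19 to 1.30) and Atp5g1, one of 3 genes for the c subunit, at 1.23 (95% interval 1.12 to 1.35). None of these 10 reached the limit for a call.

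Cox7a1 had 17 counts in the library labelled knockout (0.700 CPM) and 38 in control islets (1.44 CPM), a ratio of 0.503 (95% interval 0.266 to 0.913). Cox8b moved the other way, with 31 counts in the library labelled knockout and 15 in control islets and a ratio of 2.32 (95% interval 1.22 to 4.63), but its mean was under 1 CPM, so it was not measured. These 2 isoforms rest on few reads. The 7 brown adipocyte markers summed to 10.1 CPM in the library labelled knockout and 9.90 CPM in control islets, with 1 of 7 at 0 in each. The 4 lymphocyte markers summed to 123 CPM in the library labelled knockout and 714 in control islets. The part of other cells in the OXPHOS ratios was not tested.

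**Figure D2:**
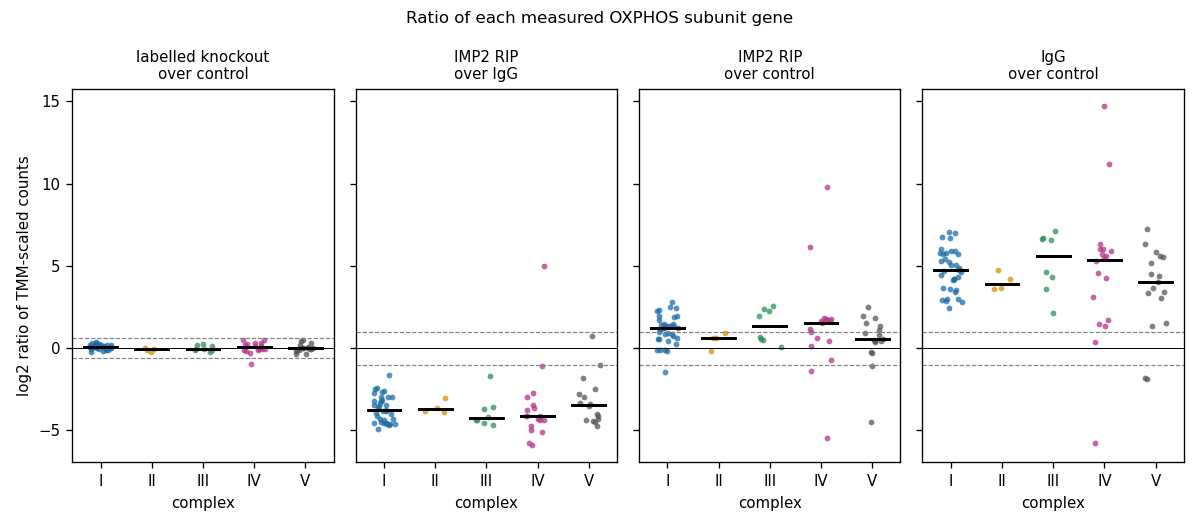
Log2 ratio of TMM-scaled counts of each measured member, by complex, in the 4 comparisons. Each point is a gene, bars are medians, and dashed lines mark the fold limit of each comparison. Members lie around 0 for the labelled knockout over control (median 0.02), far below 0 for RIP over IgG (median -3.84), mostly above 0 for RIP over control (median 1.0) and far above 0 for IgG over control (median 4.62).

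The second comparison set the IMP2 RIP against the IgG library, the control made for it. Nearly all OXPHOS subunits were lower in the RIP, in every complex, and Cox6a2 was higher. A call required at least 2-fold in this and the following comparisons. Of 81 measured members, 79 were called lower, against 30.5% of all 14822 measured genes, and 1 was called higher, against 43.2% of all genes. The median log2 ratio of the members was -3.84, against 0.44 over all genes, a difference of -4.28 that does not depend on the scaling. With Cox6b2, which had 0 counts in the RIP, at its bound, the members' median was -3.81.

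The complex medians for RIP over IgG lay between -3.44 for complex V and -4.27 for complex III. Complex I was at -3.76, complex II at -3.73 and complex IV at -4.14. Within complex I, the 7 core subunits, which carry the redox centres, had a median of -3.13, and the 28 accessory subunits -4.00. Cox7a1 was 34.2-fold lower, Cox8b 31.1-fold and Ndufa9, an accessory subunit of complex I, 30.2-fold. Atp5k, subunit e of the ATP synthase, was 27.0-fold lower and Cox6a1 26.9-fold. Cox6b2, an isoform known from testis, had 0 counts in the RIP, against 36 in the IgG library, at least 8.84-fold lower.

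Cox6a2 went against the rest. The RIP held 358 counts of it (59.4 CPM) and the IgG library 15 (1.14 CPM), a ratio of 32.4 (95% interval 19.4 to 58.5). Atp5g1 had 78 and 64 counts in the same order, with a ratio of 1.66 (95% interval 1.17 to 2.34), and was not called. The called members with the smallest differences were Atp5s, 2.02-fold lower, Cox7c, a structural subunit of complex IV, 2.13-fold lower, and Ndufs5, an accessory subunit of complex I, 3.16-fold lower. Under library totals, and under totals without hormone, acinar and Gm42418 counts, Atp5g1 passed the limit and 2 members were called higher.

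Markers of other cells went in different directions. Of 7 brown adipocyte markers, 5 were called lower in the RIP and 1 higher, Ebf2, with 49 counts against 0. All 5 general adipocyte markers and 5 of 6 measured skeletal muscle markers were called lower. The 2 measured heart muscle markers were called higher. Over all genes, 30.5% were called lower and 43.2% higher. In the RIP, the 5 general adipocyte markers summed to 476 CPM, against 6541 CPM in the IgG library, and the 7 brown adipocyte markers to 743 CPM, against 10497 CPM. Ucp1, the uncoupling protein that defines brown fat, stood at 186 CPM in the RIP, against 4121 CPM in the IgG library, and its level in control islets was 0.190 CPM. The 6 heart muscle markers, whose tissue also uses these isoforms, summed to 10.6 CPM in the RIP with 4 at 0 and 0.0758 CPM in the IgG library with 5 at 0. The 8 skeletal muscle markers summed to 65.1 CPM with 3 at 0 and 184 CPM with 1 at 0. The part of brown adipocyte or muscle RNA in the OXPHOS ratios was not tested.

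The third comparison set the RIP against control islets and does not use the IgG library. OXPHOS subunits were more often higher than lower, with Cox8b and Cox7a1 far above the rest. Of 81 measured members, 40 were called higher, against 16.8% of all 15968 measured genes, and 5 were called lower, against 24.3% of all genes. The median log2 ratio was 1.0, against -0.12 over all genes, and 68 of the 81 lay above 0. Because this median sits at the 2-fold limit itself, the count of called members turns on small differences. The 5 called lower were Ndufa9, Cox4i2, Ndufa4l2, Atp5g1 and Atp5g2. Ndufa4l2 and Atp5g2 passed the filter on mean CPM only through control islets, and Cox8b only through the RIP. The direction of their calls was thus fixed by the filter.

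In this comparison the complexes ranged between a median log2 of 0.58 in complex V and 1.49 in complex IV. Complex I was at 1.25 with 20 of 35 called higher, complex II at 0.61 with 0 of 4, complex III at 1.31 with 4 of 8, complex IV with 10 of 17 and complex V with 6 of 17. The core subunits of complex I had a median of 0.43 with 1 of 7 called higher, and its accessory subunits 1.34 with 19 of 28. Cox8b had a ratio of 921 (95% interval 558 to 1649) and Cox7a1 a ratio of 71.5 (95% interval 51.4 to 102). They were followed by Ndufb2 at 6.84 (95% interval 5.78 to 8.11), Uqcr10 at 5.99 (95% interval 5.62 to 6.38) and Atp5k at 5.74 (95% interval 5.35 to 6.16).

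On the other side, Ndufa4l2, a relative of Ndufa4 known to be induced by hypoxia, had 1 count in the RIP and 357 in control islets, a ratio of 0.0149 (95% interval 0.000375 to 0.0834). Ndufa9 was 2.71-fold lower in the RIP, with 78 counts there and 1121 in control islets. Cox4i2, the lung isoform of subunit 4, was 2.71-fold lower and Atp5g1 2.15-fold lower. Atp5g2 had 0 counts in the RIP and 60 in control islets, at least 3.77-fold lower. Cox6a2 had a ratio of 0.596 (95% interval 0.533 to 0.665) and Atp5c1, the gamma subunit, 0.818 (95% interval 0.737 to 0.906), and neither was called.

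Markers of other cells differed in this comparison too. Of 7 brown adipocyte markers, 6 were called higher in the RIP and 1 lower, Prdm16, at a ratio of 0.405. All 5 general adipocyte markers were called higher. Of 6 measured skeletal muscle markers, 5 were called higher and 1 lower, and of 4 heart muscle markers 2 and 2. Over all genes, 16.8% were called higher and 24.3% lower. The brown adipocyte list summed to 743 CPM in the RIP with 0 of 7 at 0, and 9.90 CPM in control islets with 1 at 0. Ucp1 had 1123 counts in the RIP and 5 in control islets. Beta cell markers summed to 235715 CPM in the RIP and 309171 in control islets. As a percentage of the IgG level in CPM, the RIP level was 5.19% for Cox8b, 4.72% for Cox7a1 and 5.97% for Atp5k. It was 6.82% for Uqcr10 and 24.5% for Ndufb2. Among members with at least 1 CPM in the IgG library, it ran between 0% for Cox6b2 and 5227% for Cox6a2. Whether RNA of adipocytes or muscle takes part in the RIP values was not tested.

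The fourth comparison set the IgG library against control islets. In it, 78 of 82 measured members were called higher, against 25.7% of all 15352 measured genes, and 3 were called lower, against 47.3% of all genes. The median log2 ratio was 4.62, against -0.79 over all genes, a difference of 5.42. All 35 members of complex I, all 4 of complex II and all 8 of complex III were called higher, with medians of 4.77, 3.91 and 5.62. In complex IV 16 of 18 were called higher with a median of 5.38, and in complex V 15 of 17 with a median of 3.99.

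Cox8b had 109911 counts in the IgG library (8329 CPM) and 15 in control islets (0.569 CPM), a ratio of 27547 (95% interval 16701 to 49219). Cox7a1 had 23772 and 38 counts in that order, a ratio of 2352 (95% interval 1713 to 3324). Atp5k had 60451 counts in the IgG library and 1524 in control islets, a ratio of 149 (95% interval 142 to 157). Uqcr10, a small subunit of complex III, followed at 136 (95% interval 130.0 to 143) and Ndufs6, an accessory subunit of complex I that carries zinc, at 136 (95% interval 127 to 145).

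The 3 members called lower in the IgG library were Cox6a2, Atp5g1 and Atp5g2. Cox6a2 had 15 counts there and 3188 in control islets, 56.5-fold lower (95% interval 34.2 to 101). Atp5g1 had 64 and 890 counts in the same order, 3.70-fold lower, and Atp5g2 had 4 and 60, a ratio of 0.251 (95% interval 0.0661 to 0.676). Ndufa4l2 had a ratio of 1.28 (95% interval 1.04 to 1.58) and was the member not called. Cox4i2 at 2.48 (95% interval 1.89 to 3.24) and Atp5s at 2.56 (95% interval 2.07 to 3.16) were the lowest of those called higher. Beta cell markers stood at a sum of 967 CPM in the IgG library, against 309171 CPM in control islets, and general adipocyte markers at 6541 CPM, against 39.1 CPM. Skeletal muscle markers summed to 184 CPM, against 5.46 CPM, and all 6 measured were called higher. The 2 measured heart muscle markers were called lower, and of 3 liver markers 2 were called higher and 1 lower. The liver marker called lower was Ttr, which was also listed as an alpha cell marker and stood at 1163 CPM in control islets. Over all genes, 25.7% were called higher and 47.3% lower. The part of such cells in these ratios was not tested.

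Within a library, the share of a tissue isoform in its pair does not depend on the scaling between libraries. Shares were computed from levels per kb, with exact binomial 95% intervals on the counts. Cox8b (mm10 chromosome 7, 140898945 to 140900446, minus strand) and Cox8a (chromosome 19, 7215153 to 7217616, minus strand) encode subunit 8 of complex IV. Cox8b made up 1.23% (95% interval 0.835 to 1.73) of the pair in the library labelled knockout, 79.7% (95% interval 78.6 to 80.8) in the RIP, 90.7% (95% interval 90.5 to 90.8) in the IgG library and 0.661% (95% interval 0.370 to 1.09) in control islets. It was the major form in both precipitated libraries and a trace in both islet libraries.

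Cox7a1 (chromosome 7, 30184144 to 30186078, plus strand) and Cox7a2 (chromosome 9, 79755361 to 79759878, minus strand) encode subunit 7a. Cox7a1 made up 1.5% (95% interval 0.877 to 2.38) in the library labelled knockout, 42.1% (95% interval 39.6 to 44.7) in the RIP, 58.4% (95% interval 58.0 to 58.8) in the IgG library and 3.42% (95% interval 2.44 to 4.65) in control islets. It followed Cox8b across libraries except between the islet libraries, where Cox8b had the greater share in the library labelled knockout and Cox7a1 in control islets.

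Cox6a2 (chromosome 7, 128205435 to 128206387, minus strand) and Cox6a1 (chromosome 5, 115345642 to 115348981, minus strand) encode subunit 6a. Cox6a2 made up 57.9% (95% interval 56.7 to 59.0) of the pair in the library labelled knockout, 17.3% (95% interval 15.7 to 19.0) in the RIP, 0.0240% (95% interval 0.0135 to 0.0396) in the IgG library and 51.9% (95% interval 50.6 to 53.1) in control islets. Thus the 3 isoforms known from muscle did not move together: in the IgG library Cox8b and Cox7a1 had their highest shares and Cox6a2 its lowest. With no division by length, Cox7a1 made up 44.3% of its pair in the IgG library, so whether it or Cox7a2 was the major form there depends on the length used. Of the exon bases of Cox6a2, 10.3% overlap Itgad, so some of its reads may not be separable. Per length of the transcript with the longest coding sequence, the Cox6a2 share was 52.8% in the library labelled knockout and 46.7% in control islets, which moves it across equal shares in control islets only.

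The remaining pairs favoured the ubiquitous form in every library. Cox4i2 made up 4.24% (95% interval 3.48 to 5.10) of its pair with Cox4i1 in the library labelled knockout, 0.603% (95% interval 0.290 to 1.10) in the RIP, 0.201% (95% interval 0.163 to 0.246) in the IgG library and 5.04% (95% interval 4.28 to 5.89) in control islets. Ndufa4l2 made up 13.0% (95% interval 11.7 to 14.4) of its pair with Ndufa4 in the library labelled knockout, 0.0894% (95% interval 0.00226 to 0.497) in the RIP, 0.457% (95% interval 0.380 to 0.545) in the IgG library and 14.5% (95% interval 13.1 to 15.9) in control islets. Ndufa4 was first described in complex I and is known as a subunit of complex IV. Cox6b2 made up 1.51% of its pair with Cox6b1 in the library labelled knockout, 0% in the RIP (upper bound 0.155%), 0.0646% in the IgG library and 1.03% in control islets.

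**Figure D3:**
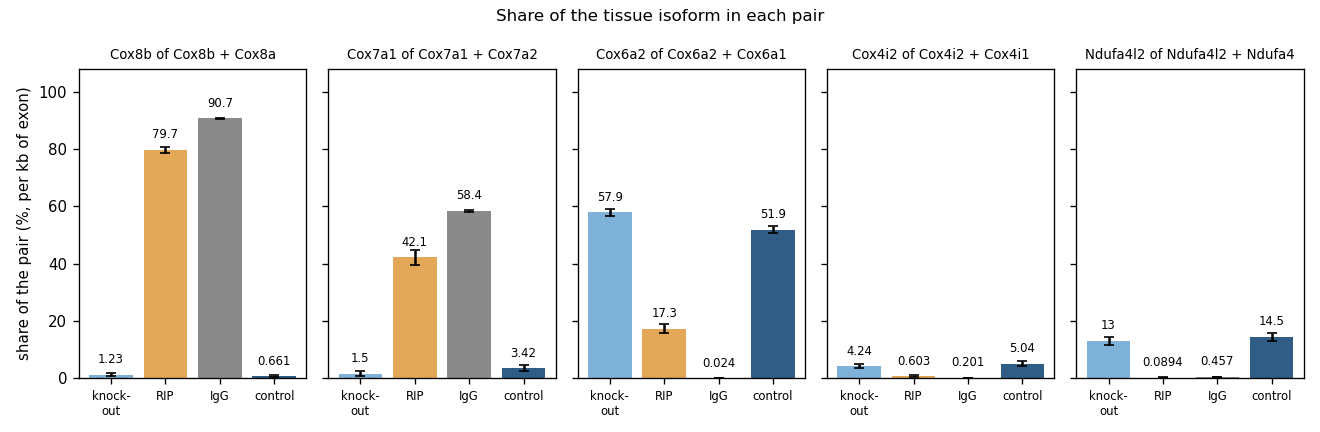
Share of the tissue isoform in each isoform pair by library, in percent of the pair's summed CPM per kb of exon. Bars start at 0, and error bars are exact binomial 95% intervals, which cover counting error only. Cox8b and Cox7a1 have their highest shares in the IgG library (90.7% and 58.4%), and Cox6a2 has its lowest there (0.0240%).

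The c subunit forms the rotating ring of the ATP synthase, and Atp5g1, Atp5g2 and Atp5g3 encode the same mature protein with different import sequences. Atp5g3 had 3869 counts in the library labelled knockout, 1056 in the RIP, 14308 in the IgG library and 4312 in control islets. Its share of the summed level per kb was 88.0%, 96.8%, 99.8% and 90.1% in that order. Atp5g1 had 976, 78, 64 and 890 counts and a share of 9.85%, 3.18%, 0.198% and 8.26%. Atp5g2 had 73, 0, 4 and 60 counts and a share of 2.16%, 0%, 0.0363% and 1.63%. Atp5g3 was thus the main c subunit gene in all 4 libraries, most of all in the IgG library. Of 50-base stretches in Atp5g2, 38.3% also occur in transcripts of other genes, and 11.1% in Atp5g1, so both may be undercounted.

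Shorter members had higher ratios over control than longer ones. For IgG over control, the 41 members with a coding length at or under 136.5 codons had a median log2 ratio of 5.48 and the 41 longer ones 4.21. All measured protein-coding genes split at that length had 1.27 over 692 short genes and -0.91 over 12983 longer genes. For RIP over control, the shorter members had a median of 1.62 and the longer ones 0.61, against 0.16 and -0.17 over all protein-coding genes. For RIP over IgG the medians were -4.13 and -3.65, against -1.48 and 0.46. For the labelled knockout over control they were 0.10 and -0.01, against 0.07 and 0.00.

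Spearman's rho between coding length and log2 ratio was -0.39 over 82 members for IgG over control and -0.27 over all measured protein-coding genes. It was -0.49 for RIP over control, against -0.09 over all protein-coding genes, 0.28 for RIP over IgG, against 0.26, and -0.32 for the labelled knockout over control, against -0.06. These comparisons share libraries, and genes are not independent replicates. The core subunits of complex I and the F1 subunits include many of the longest members, and accessory subunits many of the shortest. Role and length were not separated.

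**Figure D4:**
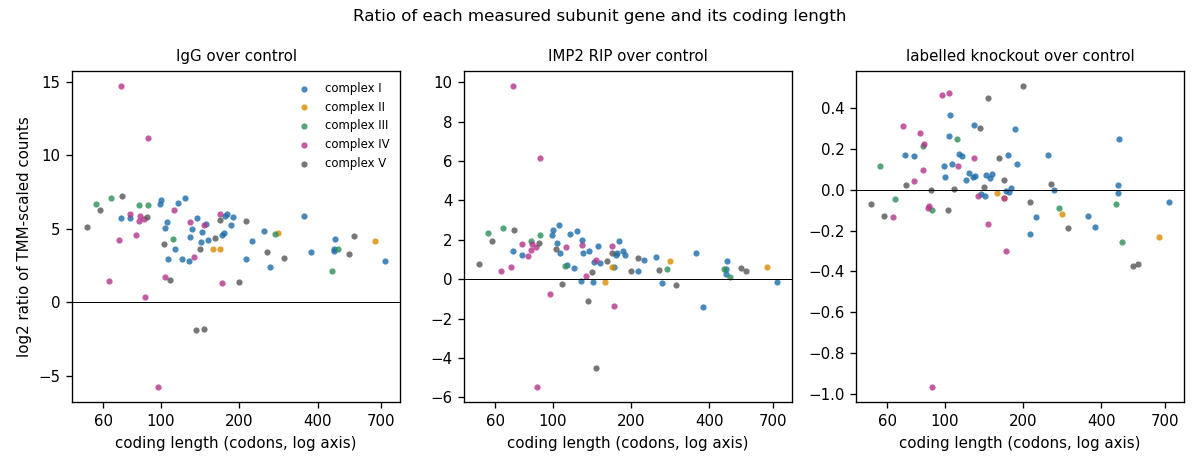
Log2 ratio of TMM-scaled counts of each measured member against its coding length in codons (log axis), coloured by complex, for IgG over control, RIP over control and the labelled knockout over control, each on its own scale. Shorter members tend to lie higher, with Spearman's rho of -0.49 for RIP over control and -0.39 for IgG over control.

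Genes that work with the OXPHOS subunits, taken as lists without members, followed them in part. Counts are read against the shares over all genes given above for each comparison. In the library labelled knockout over control, 1 of 5 electron carriers and further subunits was called higher, Ndufab1, the mitochondrial acyl carrier protein, at 1.51. Of 14 measured assembly factors of complex I and 13 of complexes II, III and V, 0 were called in either direction. Of 18 assembly factors of complex IV, 1 was called lower, Taco1, which activates translation of a mitochondrial oxidase subunit, at 0.639. The 16 genes of the citric acid cycle and pyruvate dehydrogenase had 0 calls, with citrate synthase (Cs) the lowest at 0.689. In fatty acid oxidation 1 of 15 was called lower, Cpt1a, which loads fatty acids for import into mitochondria, at 0.588. Of 12 regulators of mitochondrial biogenesis, 1 was called lower, the coactivator Ppargc1b, at 0.649. Its relative Ppargc1a had the lowest ratio, 0.603, with an interval that included 1.

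For RIP over IgG, all 16 citric acid cycle genes, 13 of 15 fatty acid oxidation genes, 12 of 14 complex I assembly factors, 12 of 13 of complexes II, III and V, and 12 of 17 of complex IV were called lower. Exceptions called higher were Cpt1a at 5.37, Atpif1, an inhibitor of the ATP synthase, at 6.00, and the assembly factors Ndufaf7 at 2.92 and Cox15 at 2.51. Of 12 regulators, 3 were called higher and 6 lower.

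For IgG over control, 16 of 16 citric acid cycle genes and 13 of 15 fatty acid oxidation genes were called higher, as were 12 of 14, 12 of 13 and 12 of 17 assembly factors in the same order of complexes. Cycs, cytochrome c, was the highest carrier at 215, and Acaa2, a thiolase, the highest in fatty acid oxidation at 184. Atpif1 at 0.218, Cpt1a at 0.119 and Cox15 at 0.393 were called lower. Of 13 measured regulators, 6 were called higher and 4 lower. Ppara was the highest of them at 107, and Tfb1m the lowest with 0 counts in the IgG library and 146 in control islets. For RIP over control the same lists had fewer calls, several of them near the shares over all genes of 16.8% higher and 24.3% lower, so that these counts say little about the lists. They were 3 higher and 1 lower of 16 citric acid cycle genes, 5 and 0 of 15 in fatty acid oxidation, 3 and 1 of 14 complex I assembly factors, 2 and 3 of 13 of complexes II, III and V, 4 and 2 of 17 of complex IV, 3 and 0 of 5 carriers, and 2 and 2 of 12 regulators. Cycs was the highest carrier there too, at 6.83.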

How the data were processed

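RNA sequencing of mouse islets gave 1 library in each of 4 groups, grouped by the genotype and title in the labels. The deposited files hold whole-number read counts per gene, 1 per library, with 43629 Ensembl genes each. Per the submitters' processing notes, reads were aligned with STAR and counted with HTSeq on mm10; the sources used here give no versions, annotation release or strand option, and overlapping or antisense genes may share reads. The 5 closing entries that name no gene held 50.3% of the total in the library labelled knockout, 72.4% in the RIP, 70.5% in the IgG library and 50.8% in control islets, and were left out. Reads aligned more than once were among them (28.4%, 36.0%, 48.2% and 30.7%), which undercounts genes that have near-identical copies. On either strand, 46 members share at least 1 stretch of 50 bases with transcripts of other genes, and Atp5l shares 84.8% of its stretches. Some of these other genes overlap the member at its own locus, as Haus1 overlaps Atp5a1. The 46 are therefore not a count of members with copies elsewhere.

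Names, types, exon lengths and coordinates came from GENCODE M21 (GRCm38), which matched 42548 identifiers and left 1081 unmatched. CPM used gene counts. Each pair was scaled by TMM in edgeR 4.0.16 under R 4.3.3, and ratios have exact Clopper-Pearson 95% intervals. Genes with a mean of at least 1 CPM in the pair were measured, and called past 1.5-fold (labelled knockout over control) or 2-fold (other pairs) with an interval excluding 1. A gene near 0 in either library of a pair passes only through the other, and its direction is then fixed. For log2 medians, 0.5 counts were added. A fold against a library at 0 is a bound against 3 counts, which is 0.124 CPM in the library labelled knockout, 0.498 in the RIP, 0.227 in the IgG library and 0.114 in control islets. Intervals and floors cover counting error only, since reads carry no molecular identifiers.

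Named genes were the isoform pairs and c subunit genes, the top 2 members of each complex in control islets, the 5 highest and 5 lowest ratios of each comparison at a mean of at least 5 CPM, members under 1 CPM in all libraries, and calls against the majority, plus the extreme genes of each list. Cox8b in the labelled knockout comparison, Ppargc1b, Atpif1, Cox15, Ndufaf7 and Cpt1a were named after their values were seen where this rule did not reach them. Members, lists and markers were chosen with earlier results of these data known. Ndufa4 and Ndufa4l2 were placed in complex IV. Promoters came from RefSeq, and 68 members matched. Alternatives were library totals, DESeq2 1.42.0 size factors, totals without hormone, acinar and Gm42418 counts, other filters on low counts and other gene lengths. The ratio step was tested on simulated counts. Other steps used pandas 2.3.3, SciPy 1.17.1, NumPy 2.4.6 and Matplotlib 3.10.9 in Python 3.11.15.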

Additional observations from a re-analysis of the deposited data

How the results depend on the processing

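The members' medians kept their direction under all alternatives, except that of the labelled knockout over control, which lay between -0.03 and 0.05. The major form of a pair turned in 2 cases: Cox7a1 in the IgG library with no division by length (44.3%) and Cox6a2 in control islets per coding transcript (46.7%). For the labelled knockout over control, 1 member (Cox8b) was called higher with no filter on low counts, and 0 were called lower at a mean of at least 5 CPM. Under library totals the median log2 ratio was -3.15 for RIP over IgG with 2 members called higher, 0.72 for RIP over control and 3.71 for IgG over control. Under totals without hormone, acinar and Gm42418 counts these medians were -2.38 with 2 called higher, 0.92 and 3.15. DESeq2 size factors gave 4.80 for IgG over control, and a mean of at least 5 CPM left 3 called lower for RIP over control. All genes shifted with the members: their median for RIP over IgG was 0.44 under TMM, 1.13 under library totals and 1.90 without those counts, so only the difference of -4.28 is free of the scaling. Shares of Cox8b per length of the transcript with the longest coding sequence, an alternative chosen after seeing the data, were 77.7% (RIP) and 89.6% (IgG), and those of Cox7a1 35.9% and 52.0%. No paired analysis was possible because each group has 1 library. The RIP library is the shallowest, and members with few counts there have wide intervals. The IgG library was deeper than the RIP but detected fewer genes, 14105 against 15380. The library labelled knockout detected 24412 and control islets 24350. How far zeros and low counts in the precipitated libraries go with this was not tested.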

Other observations

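The 10 symbols of these families left out as not protein-coding are processed pseudogenes by annotation, and their counts were highest in the IgG library as well. Cox6c2 had 385 counts in the library labelled knockout, 214 in the RIP, 3977 in the IgG library and 472 in control islets. Ndufs6b had 167, 130, 3833 and 167 counts in that order, Uqcrh-ps2 had 87, 49, 2687 and 100, and Atp5k-ps2 had 65, 38, 1467 and 57. Ndufs6 shares 8.61% of its 50-base stretches with transcripts of Ndufs6b. Which copy such reads came from was not tested.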
